A study of Mus musculus with 12 samples.

Results

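Mitochondrial ribosomal proteins were taken as the genes whose symbol is Mrpl or Mrps followed by a number and at most 1 letter. The rule found 78 of the 55421 genes in the count table, all of them protein-coding and spread over 17 chromosomes. They were read in ventricular RNA from wild-type mice, with 3 groups and 4 libraries in each, with no age stated in the labels. The saline group carried saline and vehicle. In the AngII group a minipump placed under the skin on day 0 released angiotensin II, a peptide that constricts vessels and enlarges the heart, and vehicle was given. The AngII_FI group had the same infusion together with Forsythoside I (FI), a small molecule injected into the peritoneum at 50 mg/kg every other day from the day before the pump to day 14. FI was not given without angiotensin II, so FI alone was not measured. The labels do not say whether each library is 1 animal, and p-values here measure the spread between these libraries.

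The mitochondrial ribosome sits in the mitochondrial matrix and translates only the messengers of mitochondrial DNA, which encode core subunits of the respiratory chain and of ATP synthase. Its ribosomal RNAs come from mitochondrial DNA, but all of its proteins are encoded in the nucleus, made in the cytosol and imported. The large subunit joins amino acids and the small subunit reads the messenger. Some of the proteins descend from bacterial ribosomal proteins and others are found only in mitochondrial ribosomes. The heart depends heavily on respiration, and inherited defects in several of these genes cause cardiomyopathy in people.

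Of the 78 genes, 51 encode proteins of the large subunit (30 with a bacterial counterpart and 21 specific to mitochondria) and 26 encode proteins of the small subunit (16 and 10). In this count Mrps30 and Mrps18a belong to the large subunit in spite of their names. Mrps36 stands outside both, since its product is known as a subunit of the 2-oxoglutarate dehydrogenase complex rather than of the ribosome. Another 5 symbols are pseudogenes with a -ps ending and were not included. Their counts stayed between 0 and 198 per library, whereas the lowest count of any of the 78 genes in any library was 710.

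Many of these genes start back to back with another gene. The start of a protein-coding gene on the opposite strand lay within 1000 bases of the start of 33 of the 78 genes (42.3%), against 15.0% of the tested protein-coding genes. The share was 16.6% among those that averaged at least 10 CPM (counts scaled to the library total). For 18 of the 33 the starts stood apart and pointed away from each other (23.1% of the 78, against 9.36% of the tested protein-coding genes), and for 15 they crossed, so that the gene models overlap at their starts. A start here is the outermost end of the gene model, and single transcripts may start elsewhere. Several partners also act in mitochondria. They are examples picked by known function, and their share among all partners was not counted. Mrps12, a protein of the decoding centre, starts 172 bases from Sars2, the mitochondrial seryl-tRNA synthetase. Among the crossing pairs, Mrpl43 is paired with Twnk, the helicase of mitochondrial DNA replication, and Mrpl36 and Mrpl47 with Ndufs6 and Ndufb5, which encode subunits of complex I. Mrps27 starts 81 bases from Ptcd2, a mitochondrial RNA-binding protein. In one pair, Mrps11 and Mrpl46, both partners are mitochondrial ribosomal proteins, 1 of each subunit, and their gene models share exon bases. At the RefSeq start of Mrpl46, though, 29 bases free of annotated exons separate it from the Mrps11 model. The 2 genes nevertheless kept separate levels, at 19.1 and 32.9 CPM over the 12 libraries, or 8.80 and 23.3 CPM per kilobase of exon. Overlaps bear on the values too, since 33 of the 78 gene models share exon bases with another gene, 28 with one on the opposite strand. How strand was handled in counting is not given in the sources used here, and reads in those stretches cannot be assigned with certainty.

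The sequence just before the start was read from RefSeq (GRCm38.p6) in windows of 250 bases before to 50 after the start, which were at hand for 69 of the 78 genes. Short motifs of factors known for promoters of mitochondrial and housekeeping genes were searched on both strands. The ETS motif CCGGAAG, bound by factors such as GABP, lay in 26 of the 69 (37.7%), against 18.2% of tested genes with a window and 9.93% of all 27025 genes with one. The YY1 motif AAGATGGCG lay in 8 (11.6% against 3.15% and 1.64%). The core of the NRF1 motif, CGCATGCG, which reads the same on both strands, lay in 7 (10.1% against 3.88% and 2.07%). Any of the 3 was found in 36 (52.2% against 23.4% and 12.8%). The median GC content of the windows was 58.0%, against 60.3% for tested genes, and the matches are letters in a window, not sites shown to be bound.

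The stretches below show the back-to-back starts and the ETS motif, printed 5′ to 3′ on the strand of the named gene, with each ETS match on either strand in capitals. The Mrps12 stretch (chr7:28741822-28741991, minus strand) fills the gap up to Sars2, and that of Mrps27 (chr13:99344706-99344785, plus strand) the gap up to Ptcd2. That of Mrpl43 (chr19:45006443-45006557, minus strand) reaches the next annotated exon on the side of Twnk. Those of Mrpl52 (chr14:54426709-54426908, plus strand) and Mrps22 (chr9:98601680-98601879, minus strand) have no such partner.
Mrps12: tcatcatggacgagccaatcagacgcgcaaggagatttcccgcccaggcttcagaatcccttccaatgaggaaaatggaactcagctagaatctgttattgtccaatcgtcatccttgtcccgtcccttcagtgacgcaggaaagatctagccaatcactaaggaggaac
Mrps27: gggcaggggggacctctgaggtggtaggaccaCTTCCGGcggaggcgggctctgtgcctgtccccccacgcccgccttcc
Mrpl43: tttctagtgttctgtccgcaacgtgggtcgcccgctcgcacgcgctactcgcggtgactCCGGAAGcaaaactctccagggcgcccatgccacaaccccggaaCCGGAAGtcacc
Mrpl52: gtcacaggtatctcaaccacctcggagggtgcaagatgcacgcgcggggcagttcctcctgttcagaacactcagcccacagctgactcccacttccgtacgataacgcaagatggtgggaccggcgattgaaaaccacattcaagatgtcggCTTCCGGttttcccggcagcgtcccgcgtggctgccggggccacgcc
Mrps22: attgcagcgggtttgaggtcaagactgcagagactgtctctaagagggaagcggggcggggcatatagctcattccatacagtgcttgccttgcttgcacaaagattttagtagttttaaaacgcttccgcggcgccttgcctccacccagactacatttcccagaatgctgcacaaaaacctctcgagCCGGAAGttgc
The Mrpl43 stretch holds the ETS letters at 2 places, while the gap between Mrps12 and Sars2 holds none of the 3 motifs. The wider window of Mrps12 does hold an ETS match outside that gap, and Mrps12 is counted among the genes with the motif.

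**Figure D1:**
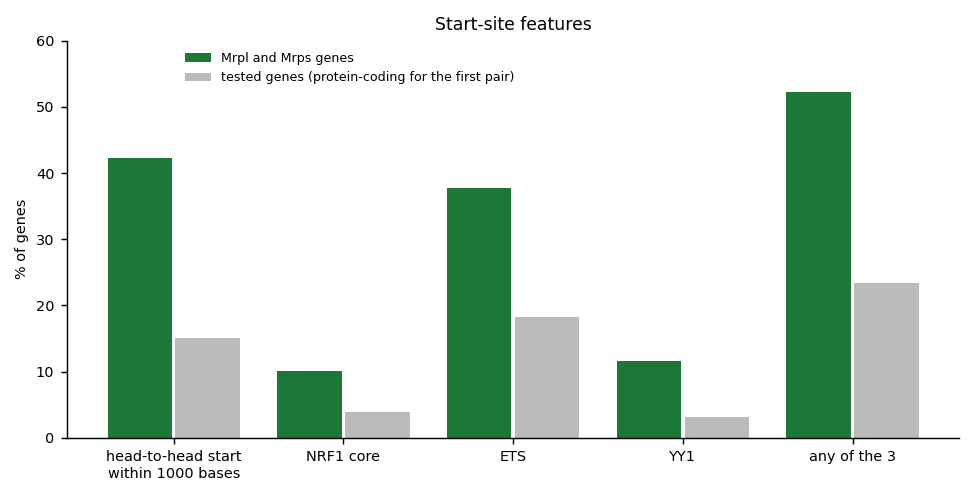
Shares of genes (%) with a protein-coding gene of the opposite strand starting within 1000 bases of their own start (apart or crossing), and with each promoter motif. Green bars are the mitochondrial ribosomal protein genes (78 for the first pair, 69 for the motifs) and grey bars the tested genes. The green bar is the higher in every pair, for example 37.7% against 18.2% for ETS.

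The 12 libraries held 68874852 to 80624227 counts. One library, AngII_FI 3, carried 26798 CPM on 23 hepatocyte markers, against 3.62 to 63.8 CPM in the other 11, where the highest value was that of AngII 3. Comparisons with the AngII_FI group are therefore given with and without AngII_FI 3. The ventricular label was met by 10 cardiomyocyte markers, none of them at 0, with sums of 31616 to 44359.5 CPM. The share of mitochondrially encoded genes was 29.1% in AngII_FI 3 and 34.0% to 38.8% in the other libraries. Marker sums of fibroblasts and macrophages were higher in every AngII library than in every saline library, while the endothelial ranges of saline and AngII overlapped. The sum of 8 fibroblast markers was 824 to 1069 CPM in saline, 1262 to 1533 in AngII and 1023 to 1159 in AngII_FI. In the same order, 7 macrophage markers summed to 263 to 374, 424 to 484 and 379.6 to 449 CPM, and 7 endothelial markers to 472 to 768, 664 to 910.0 and 517 to 624 CPM. The part of these cells in the results below was not tested. In RNA from whole tissue, fewer cells of a type and less RNA per cell cannot be told apart.

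All 78 genes were well expressed and passed the filter on low counts, so each was tested. Their mean level ran from 13.4 CPM for Mrpl52 to 250.4 CPM for Mrpl42, with a median of 38.4 CPM. Per kilobase of exon, which allows genes to be compared, the order changed. Mrpl12, a protein of the stalk of the large subunit, led with 127 CPM per kilobase. Mrpl18, known for binding RNA at the central protuberance, followed with 72.0, then Mrpl42 with 68.0 and Mrps21, a small-subunit protein, with 64.4. At the other end stood Mrps10 with 2.13, Mrps17 with 3.49 and Mrpl15 with 3.88, and the median of all 78 was 17.6. The median was 21.2 for the large subunit and 11.8 for the small one, and the ranges of the subunits overlapped (3.88 to 127 and 2.13 to 64.4). Exon length counts all annotated exons, so a gene with long exons that heart does not use reads low on this scale: Mrps10 and Mrpl15 have 8079 and 8487 exon bases, Mrpl12 1532.

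**Figure D2:**
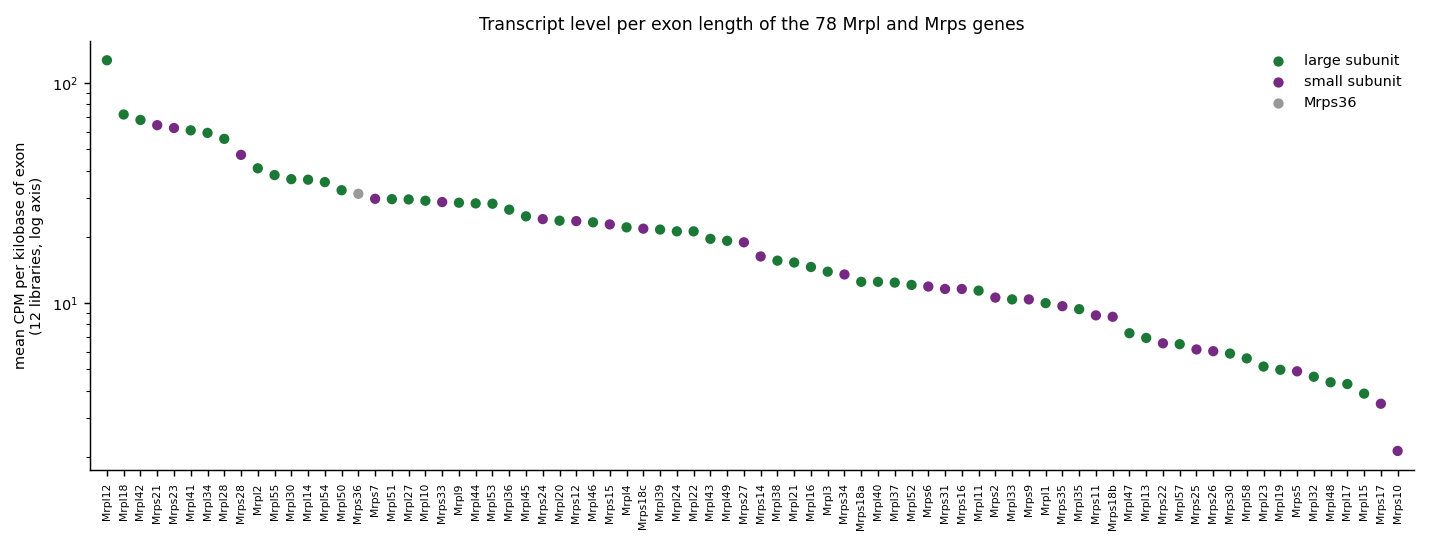
Mean level over 12 libraries of each of the 78 genes, in CPM per kilobase of exon on a log axis, ordered from high to low. Green points are large-subunit proteins, purple points small-subunit proteins and the grey point is Mrps36; levels run from 127 for Mrpl12 to 2.13 for Mrps10.

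Summed over the 78 genes, the level was nearly the same in every group. The sum was 3676, 3767, 3768 and 3905 CPM in the saline libraries, 3759.5, 3631, 3630.4 and 3865 in AngII, and 3652, 3651, 3521 and 3983 in AngII_FI. The ranges of the groups overlapped, with means of 3779 ± 94.4, 3721 ± 113 and 3702 ± 197 CPM (SD, n = 4 each). The mean was 3762 ± 191 (n = 3) in AngII_FI without AngII_FI 3, which had the lowest sum of the 12. The summed level of small-subunit genes relative to large-subunit genes was 0.377 ± 0.0137, 0.367 ± 0.0196 and 0.371 ± 0.00698. The balance between the subunits thus differed by less than the spread between libraries.

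The genes varied little between libraries of a group. The SD of log2 CPM within groups had a median of 0.129 over the 78 genes, against 0.283 over all tested genes and 0.172 over tested genes of at least 10 CPM. The highest of the 12 libraries was less than 1.5 times the lowest for 58 of the 78 genes and more than 2 times for 4. The steadiest and the most variable genes below were picked after their values were seen. Mrpl50 was the steadiest, at 70.8, 71.7, 69.6 and 70.4 CPM in saline, 67.0, 71.7, 67.9 and 68.4 in AngII and 69.9, 66.7, 66.8 and 65.3 in AngII_FI. Its highest library was 1.10 times its lowest. Mrpl18 and Mrps14 came next, with within-group SDs of 0.0466 and 0.0477 against 0.0358 for Mrpl50.

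The 4 genes that ranged over more than 2 times varied between libraries of the same group. Mrps23, a small-subunit protein specific to mitochondria, read 132, 135, 102 and 57.6 CPM in saline, 136, 87.6, 52.7 and 94.9 in AngII and 82.8, 97.3, 90.5 and 102 in AngII_FI. High and low libraries stood within both the saline and the AngII group, and the AngII_FI libraries lay between them. Mrpl53, a large-subunit protein near the stalk whose model overlaps others on both strands, read 22.4, 21.1, 16.1 and 15.1 in saline, 44.0, 20.0, 18.9 and 15.9 in AngII and 25.2, 33.0, 16.8 and 19.7 in AngII_FI. AngII 1 alone was at more than 2 times the other AngII libraries. Mrps25 was low in saline 2 (27.4 CPM) and AngII 2 (22.8) and between 37.7 and 49.6 CPM in the other 10 libraries. Mrps21 was low in AngII 3 (25.9 CPM), with 42.3 to 60.2 CPM in the rest.

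**Figure D3:**
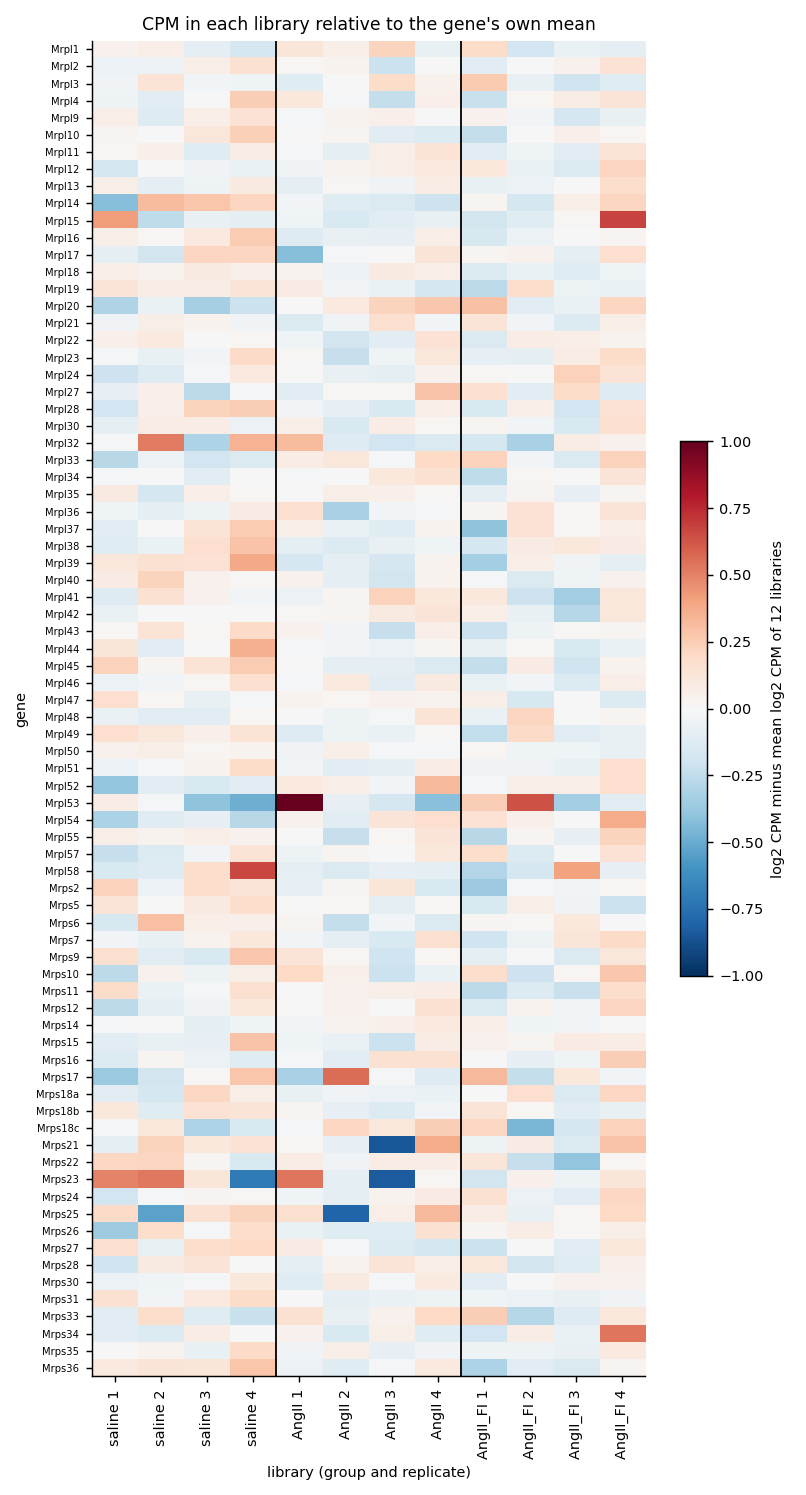
Log2 CPM of each of the 78 genes (rows) in each of the 12 libraries (columns), minus the mean of that gene over the 12 libraries, with black lines between the groups. Most cells are pale; the darker ones stand in the rows of Mrps23, Mrpl53, Mrps25, Mrps21, Mrpl58 and Mrpl15, and no column block stands out as a group.

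AngII against saline asks what the infusion alone does to the family. None of the 78 genes passed the quasi-likelihood test of edgeR with an adjusted p (Benjamini-Hochberg) under 0.05, with 0 higher and 0 lower, whereas 1.57% of all tested genes were called higher and 0.662% lower. The smallest adjusted p was 0.119, and DESeq2 and limma-voom on the same libraries also called 0, against 7.00% and 2.65% of the genes with an adjusted p. DESeq2 without AngII_FI 3 called 1 lower (Mrpl39), against 4.02% of all genes. At an unadjusted p under 0.05 stood 7 of the 78 genes, 3 higher and 4 lower, against 16.8% of all tested genes. The 4 AngII values all lay above or all below the 4 saline values for 8 of the 78, against 12.3% of all tested genes. The genes leaned slightly downward: 27 log2 fold changes were above 0 and 51 below, with a median of -0.06 and a range of -0.31 to 0.36, while the median of all tested genes was 0.00. That lean covered large-subunit (18 above, 33 below) and small-subunit genes (9 and 17) alike. Under the other scalings 25 to 30 of the 78 were above 0.

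These small differences came with narrow intervals. The median standard error over the 78 genes was 0.10 on the log2 scale, against 0.19 over all tested genes, and the 95% interval of the log2 fold change lay within 1.5-fold either way (0.58 on the log2 scale) for 73 of the 78 genes. The 5 with a wider interval were Mrpl20, Mrpl53, Mrpl58, Mrps21 and Mrps23. For Mrpl3, which sits near the site of peptide bond formation and is mutated in a mitochondrial cardiomyopathy, the difference was 0.01 with an interval of -0.27 to 0.28. For Mrpl44, linked to infantile cardiomyopathy, it was -0.14 (-0.36 to 0.08). Mrpl12 gave 0.09 (-0.12 to 0.31), Mrps12 0.10 (-0.11 to 0.32), and Mrps22 and Mrps34, whose human defects cause severe mitochondrial disease, -0.06 (-0.36 to 0.25) and -0.01 (-0.33 to 0.30).

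The genes with the largest differences were the following, and none of them passed the adjusted threshold. Mrpl39, a large-subunit protein specific to mitochondria (chromosome 16, 84717576 to 84735742, GRCm38), read 58.7, 60.4, 60.2 and 70.9 CPM in saline and 48.5, 50.7, 48.5 and 55.8 in AngII. All saline libraries lay above all AngII libraries, with saline 4 the highest, and the log2 fold change was -0.31 ± 0.10 (SE, edgeR adjusted p = 0.119). Mrpl45, the protein that anchors the ribosome to the inner membrane beside the exit tunnel, read 75.1, 65.3, 70.4 and 76.3 in saline and 64.1, 59.9, 59.7 and 57.8 in AngII, also without overlap (-0.27 ± 0.10, adjusted p = 0.193). Mrpl14, at the face between the subunits, was at 25.5 in saline 1 and 39.6 to 42.5 in the other saline libraries, with AngII at 29.6 to 33.5, so that the groups overlapped through 1 library (-0.26 ± 0.13). Mrpl58, which frees stalled ribosomes by cutting the peptidyl-tRNA, was at 16.6 to 17.3 in AngII and reached 29.1 in saline 4 (-0.29 ± 0.17).

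In the other direction, Mrpl20, an early RNA-binding protein of the large subunit (chromosome 4, 155802878 to 155809975), read 31.6, 37.2, 31.0 and 33.7 CPM in saline and 38.9, 41.7, 45.6 and 47.0 in AngII. Each AngII library was above each saline library, by 0.36 ± 0.13 on the log2 scale (edgeR adjusted p = 0.167). Mrpl52, the gene with the ETS letters shown above and the lowest CPM of the family, read 10.2, 12.4, 12.0 and 12.4 in saline and 14.3, 14.0, 13.1 and 16.7 in AngII (0.29 ± 0.10, adjusted p = 0.143). Mrpl33, a small protein of the large subunit (chromosome 5, 31596935 to 31664384) whose model overlaps Gm43809 on the same strand, read 62.5, 72.6, 66.2 and 68.6 against 79.7, 82.0, 74.9 and 86.8 (0.24 ± 0.11, adjusted p = 0.280), again without overlap. The value for Mrpl53 (0.36 ± 0.30) rested on AngII 1 and was -0.03 without it.

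**Figure D4:**
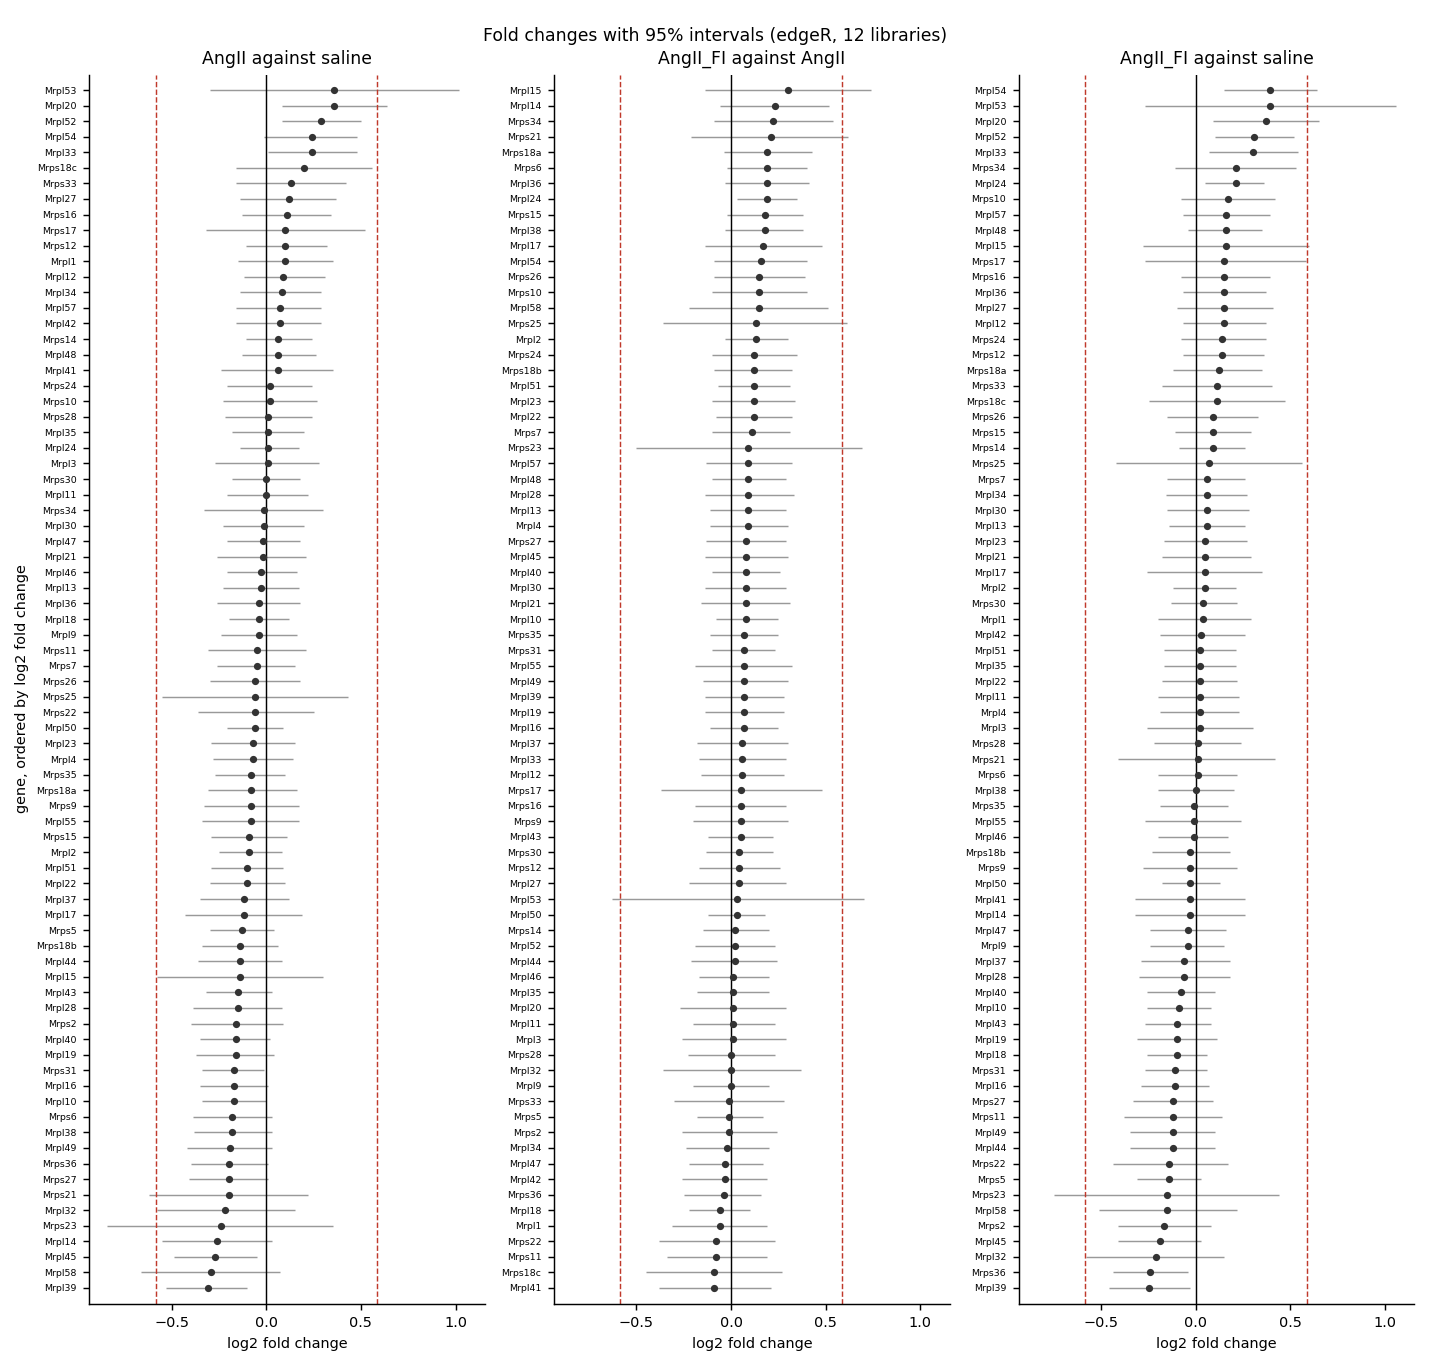
Log2 fold changes (points) with 95% intervals (bars) of the 78 genes in each comparison, from 1 edgeR fit of 12 libraries, ordered by size; the solid line marks 0 and the dashed lines a 1.5-fold difference either way. In each panel 73 of the 78 intervals stay between the dashed lines, and the points run from -0.31 to 0.36 for AngII against saline.

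**Figure D5:**
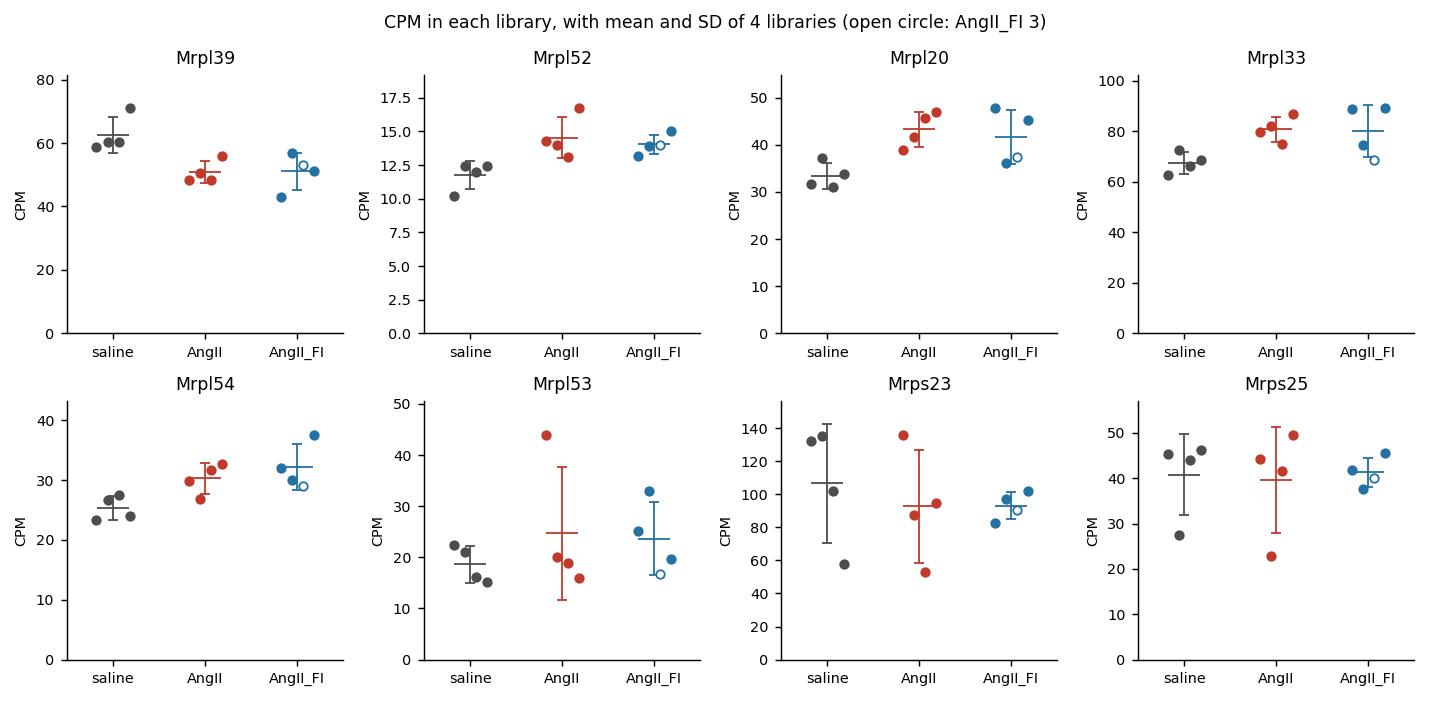
CPM of 8 genes in each library (points), with the mean and SD of 4 libraries (horizontal and vertical bars) for saline, AngII and AngII_FI; the open circle is AngII_FI 3. The saline points of Mrpl39 lie above the AngII points and those of Mrpl52, Mrpl20 and Mrpl33 below them, while the groups of Mrpl53, Mrps23 and Mrps25 overlap, with wide spread within groups.

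The comparison of AngII_FI with AngII asks which transcripts differ when FI is added. Again 0 of the 78 genes were higher and 0 lower by edgeR at the adjusted threshold, where 0% of all tested genes were called in either direction. At an unadjusted p under 0.05 stood 1 of the 78, against 9.95% of all tested genes, and the smallest adjusted p was 0.441. DESeq2 and limma-voom called 0 here as well, against 0.307% and 0% of all genes. Groups did not overlap for 0 of the 78, against 5.98% of all tested genes. The differences lay between -0.09 and 0.30 on the log2 scale, with a median of 0.07 (0.02 over all tested genes), 63 above 0 and 15 below. Scaled by library totals alone, the split was 44 above and 34 below and the median 0.01. All tested genes moved down as well under that scaling, to 7535 above and 9841 below with a median of -0.04. For 73 of the 78 genes the 95% interval stayed within 1.5-fold, the others being Mrpl15, Mrpl53, Mrps21, Mrps23 and Mrps25.

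Without AngII_FI 3 there were still 0 genes past the adjusted threshold, higher or lower, against 0% and 0.00565% of all tested genes, and 2 at an unadjusted p under 0.05, against 7.93%. The count above 0 was then 70 of 78, with a median of 0.11 and a range of -0.02 to 0.37, against a median of -0.00 over all tested genes. This lean depended on the TMM scaling of edgeR. In CPM, scaled to library totals only, the mean log2 level of the family was 5.32 ± 0.0436 in AngII (SD, n = 4). It was 5.33 ± 0.0700 in AngII_FI without AngII_FI 3 (n = 3). Groups did not overlap for 1 of the 78, against 11.2% of all tested genes. That gene, Mrps18a, was named after its values were seen. It read 43.7, 44.7, 44.1 and 43.8 CPM in AngII and 46.1, 51.6 and 53.0 in AngII_FI, with 41.5 in AngII_FI 3 (0.28 ± 0.09, edgeR adjusted p = 0.542). Nuclear-encoded subunits of oxidative phosphorylation stood to the same side without AngII_FI 3, 83 of 86 above 0 with a median of 0.17 and 0 called.

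The gene at the unadjusted threshold with all libraries was Mrpl24, a large-subunit protein that binds the ribosomal RNA, also named after its values were seen. It read 47.6, 45.2, 44.8 and 49.0 CPM in AngII and 47.9, 47.7, 55.8 and 52.5 in AngII_FI (0.19 ± 0.07, edgeR adjusted p = 0.441), with AngII_FI 3 the highest. The largest differences upward were those of Mrpl15 (0.30 ± 0.20), Mrpl14 (0.23 ± 0.13), Mrps34 (0.22 ± 0.15) and Mrps21 (0.21 ± 0.19). For 3 of them, 1 library stood far from the rest. Mrpl15 was at 51.8 CPM in AngII_FI 4 and 28.5 to 32.6 in the other libraries of both groups, and Mrps34 at 40.0 in AngII_FI 4 and 24.2 to 29.0 in the others. AngII_FI 4 also had the highest sum over the family. Mrps21 was low in AngII 3, as given above. The lowest values were those of Mrpl41 (-0.09 ± 0.14), Mrps18c (-0.09 ± 0.17), Mrps11 (-0.08 ± 0.12) and Mrps22 (-0.08 ± 0.14), and those of Mrpl41 and Mrps22 were 0.02 and 0.03 without AngII_FI 3.

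For AngII_FI against saline, which shares the saline libraries with the first comparison and the AngII_FI libraries with the second, 0 of the 78 genes were higher and 0 lower by edgeR, against 0.719% and 0.259% of all tested genes. At an unadjusted p under 0.05 stood 7 of the 78, 5 higher and 2 lower, against 17.3%, and groups did not overlap for 6, against 9.58%. With all 12 libraries the median log2 fold change was 0.02, as over all tested genes, with 45 genes above 0 and 33 below. Scaling by library totals alone turned this split to 35 and 43, with a median of -0.02. All tested genes then stood at 8426 above and 8950 below, with a median of -0.01. The smallest adjusted p was 0.109, and 73 of the 78 intervals stayed within 1.5-fold.

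That smallest p was of Mrpl54, a large-subunit protein specific to mitochondria (chromosome 10, 81264713 to 81266934). It read 23.4, 26.7, 27.5 and 24.0 CPM in saline and 32.1, 30.1, 29.1 and 37.6 in AngII_FI, where every library was above every saline library, with 29.9, 26.9, 31.7 and 32.7 in AngII (0.39 ± 0.11, edgeR adjusted p = 0.109). DESeq2 called it on the same libraries (0.39 ± 0.13, adjusted p = 0.0418), alone among the 78 (3.20% of all genes were called higher and 5.52% in either direction). Limma-voom called 0, against 1.03%. Mrpl52 gave 0.31 ± 0.10 and did not overlap with saline either, at 13.2, 13.9, 14.0 and 15.0 CPM. Mrpl20 (47.7, 36.2, 37.3 and 45.3 CPM, 0.37 ± 0.13) and Mrpl53 (0.39 ± 0.30) overlapped with saline. Below saline stood Mrpl39 at 43.0, 57.0, 53.1 and 51.2 CPM (-0.25 ± 0.10, adjusted p = 0.226), without overlap. Mrps36, the dehydrogenase subunit, read 42.6, 43.6, 43.4 and 48.2 in saline, 38.3, 36.7, 39.5 and 42.5 in AngII and 32.2, 36.9, 36.0 and 40.5 in AngII_FI. All 8 libraries with angiotensin II lay below the saline libraries (-0.24 ± 0.09, adjusted p = 0.214, for AngII_FI and -0.20 ± 0.09, adjusted p = 0.318, for AngII). Mrpl32, a protein matured by the mitochondrial AAA protease, and Mrpl45 gave -0.21 ± 0.17 and -0.19 ± 0.10.

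Without AngII_FI 3, 0 genes were called higher and 0 lower against saline, where 0.932% and 0.311% of all tested genes were, and 7 stood at an unadjusted p under 0.05, all higher, against 15.7%. Groups did not overlap for 7, against 15.7% of all tested genes. Of the log2 fold changes, 55 were then above 0 and 23 below, ranging from -0.28 to 0.54. Their median was 0.06, against -0.01 over all tested genes. The intervals of 68 of the 78 genes stayed within 1.5-fold. In CPM, scaled to library totals only, the mean log2 level of the family was 5.34 ± 0.0457 in saline (SD, n = 4). It was 5.33 ± 0.0700 in AngII_FI without AngII_FI 3 (n = 3). Mrpl33 then came nearest to the threshold, with 88.7, 74.4 and 89.0 CPM against 62.5 to 72.6 in saline and a log2 fold change of 0.39 ± 0.09 (edgeR adjusted p = 0.0530). In AngII_FI 3 it was at 68.5 CPM. Mrpl54 followed with 0.46 ± 0.11 (adjusted p = 0.0661) and Mrpl20 with 0.44 ± 0.13 (adjusted p = 0.111). DESeq2 on these 11 libraries, an alternative added after seeing the data, called these 3 of the 78 genes, against 2.77% of all genes called higher (adjusted p = 0.00580, 0.00985 and 0.0376 for Mrpl33, Mrpl54 and Mrpl20). With AngII_FI 3 and the mitochondrially encoded genes both left out, edgeR called 1 (Mrpl33), against 1.05% of all genes.

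The rest of the mitochondrial translation machinery was read from lists chosen by function, and none of its genes passed edgeR's adjusted threshold in any comparison with all 12 libraries. Against saline, AngII values of the aminoacyl-tRNA synthetases, which load amino acids onto mitochondrial tRNAs, were below 0 for 20 of 20, with a median of -0.20, against -0.06 for the ribosomal proteins. The lowest p among them was of Qrsl1, a subunit of the complex that makes glutaminyl-tRNA, which read 29.6, 28.1, 31.3 and 32.4 CPM in saline and 27.3, 23.4, 22.9 and 22.5 in AngII (-0.36 ± 0.10, edgeR adjusted p = 0.0932). Qrsl1 was called lower by edgeR in the fit without AngII_FI 3 (adjusted p = 0.0440), 1 of the 20 synthetases. That fit called 683 of all 17702 tested genes in either direction. Of 16 translation factors 13 were below 0 (median -0.19), led by Gfm1, the elongation factor that moves the ribosome along the messenger, at 172 to 226 CPM in saline and 146 to 166 in AngII (-0.38 ± 0.10, adjusted p = 0.0733). Of 26 assembly factors 21 were below 0 (median -0.15), and of 9 genes of mitochondrial DNA transcription and replication 8 (median -0.16). In AngII_FI against saline, 16 of 20 synthetases and 11 of 16 translation factors were below 0. So were 16 of 26 assembly factors and 8 of the last 9 genes. Those counts were the same without AngII_FI 3. In AngII_FI against AngII the lists, in that order, had 14, 12, 17 and 6 genes above 0. Without AngII_FI 3 these were 15, 12, 17 and 6, and by library totals alone with all 12 libraries 11, 9, 12 and 4.

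The ribosomal RNAs that the proteins bind did not pass the test either. The 2 mitochondrial ribosomal RNAs had a median of 0.27, with mt-Rnr1 at 1005 to 1313 CPM in saline and 1058 to 1652 in AngII, and the 13 mitochondrially encoded messengers a median of 0.05. Whether counts of the 2 ribosomal RNAs follow their amount in the tissue was not tested. Mitochondrial ribosomal proteins that carry other names and are not among the 78 stood at a median of -0.09 over 5 genes. Among them Chchd1, a small-subunit protein, gave 0.36 ± 0.15 (edgeR adjusted p = 0.252).

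Genes for proteins of the cytosolic ribosome, which translates the nuclear messengers, lay mostly above 0 against saline. Many of them have near-identical pseudogenes, so their counts are uncertain. Of 82 tested, 80 were above 0 in AngII against saline with a median of 0.21, and 2 were called higher, near the 1.57% of all tested genes. These were Rpl3, at 82.9 to 97.5 CPM in saline and 122 to 128 in AngII (0.48 ± 0.08, edgeR adjusted p = 0.0157), and Rpl26 (0.40 ± 0.07, adjusted p = 0.0222). In AngII_FI against saline 80 of 82 were again above 0, with a median of 0.27, and Rpl3 and Rpl27a were called, where 0.719% of all tested genes were. Leaving out AngII_FI 3, 80 of 82 were above 0 in that comparison, with a median of 0.32. There 4 were called higher, where 0.932% of all tested genes were. In AngII_FI against AngII 60 were above 0, with a median of 0.05, and 0 were called. By library totals alone 39 were above 0 and 43 below, with a median of -0.00, against -0.04 over all tested genes. Without AngII_FI 3 there were 72 above 0, with a median of 0.11. The nuclear-encoded subunits of oxidative phosphorylation, 86 tested, had medians of -0.03, 0.08 and 0.07 in the comparisons of AngII with saline, AngII_FI with AngII and AngII_FI with saline, with 0 called. Without AngII_FI 3, their medians in AngII_FI against AngII and against saline were 0.17 and 0.15, again with 0 called. The difference between these lists was not tested.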

How the data were processed

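RNA sequencing libraries from mouse ventricle were grouped by the treatment label of each sample, 4 per group. The authors deposited 1 table of raw counts per gene. The submitters' processing notes list featureCounts 1.5.0-p3, HISAT, DESeq 1.8.3 and build GRCm38. How strand and multiply mapped reads were handled is not given in the sources used here, and the protocols name 2 RNA extraction methods. The 12 libraries held 68874852 to 80624227 counts, and CPM are counts scaled to these totals; their precision covers counting error only.

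Genes were filtered by filterByExpr, scaled by TMM and tested by the quasi-likelihood test of edgeR 4.0.16 (R 4.3.3) in 1 fit of 12 libraries with 3 group means, with Benjamini-Hochberg adjustment over 17376 genes. Intervals of 95% came from the same fit, and ± after a log2 fold change is the standard error. Gene models came from GENCODE M21, which matched 99.7% of gene IDs, and exon length is that of all annotated exons merged. A promoter motif counted where any window of the gene held it. The procedure was tested on simulated counts. Alternatives were DESeq2 1.42.0, limma-voom (limma 3.58.1), other scalings, filters and designs, and leaving out single libraries; omitting AngII_FI 3 together with DESeq2, or with removal of mitochondrially encoded genes, was added after seeing the data.

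The genes and lists were chosen with earlier results of these data known, so no list was tested. The text names the 4 largest increases and decreases per comparison, the 4 highest and 3 lowest genes by CPM per kilobase, a fixed set known from disease or function (Mrpl3, Mrpl12, Mrpl44, Mrps12, Mrps22, Mrps34 and Mrps36) and, of each other list, its called genes or else the one with the smallest p.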

Additional observations from a re-analysis of the deposited data

Results flagged for a closer look

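In 8 cases among the named genes, 1 library of a group of 4 lay far from the other 3, with a gap to its nearest neighbour, as a share of the group's range, above Dixon's 95% critical value for 4 samples. The share was 0.940 for Mrpl3 in saline (saline 2 at 102 CPM, the others at 89.9 to 90.6), 0.861 for Mrpl39 in saline (saline 4 at 70.9 CPM, the others at 58.7 to 60.4) and 0.872 for Mrpl42 in saline (saline 1 at 238 CPM, the others at 249 to 250.1). It was 0.837 for Mrpl52 in saline (saline 1 at 10.2 CPM, the others at 12.0 to 12.4) and 0.883 for Mrps25 in saline (saline 2 at 27.4 CPM, the others at 44.0 to 46.2). In AngII it was 0.893 for Mrpl32 (AngII 1 at 28.2 CPM, the others at 19.8 to 20.7), 0.857 for Mrpl53 (AngII 1 at 44.0 CPM, the others at 15.9 to 20.0) and 0.970 for Mrps22 (AngII 2 at 25.4 CPM, the others all at 27.4). Chance gives about 1 in 20 groups; over all 78 genes and 3 groups, 18 of 234 (7.69%) were past the value.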

How the results depend on the processing

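Of 576 named values recomputed under the alternatives, 560 kept their direction and side of the threshold. No gene of the family was called for AngII_FI against AngII under any alternative run, nor lower for AngII_FI against saline or higher for AngII against saline. For AngII_FI against saline, 1 gene was called higher by DESeq2 (Mrpl54), 1 without mitochondrially encoded genes and AngII_FI 3 (Mrpl33, adjusted p = 0.0492) and 3 by DESeq2 without AngII_FI 3 (all genes in either direction: 798). For AngII against saline, DESeq2 without AngII_FI 3 called 1 lower (Mrpl39, adjusted p = 0.0494; all genes in either direction: 1465). Scaling by library totals alone moved the median for AngII_FI against AngII from 0.07 to 0.01, and that of all tested genes from 0.02 to -0.04. With each library left out, the log2 fold change of Mrpl53 for AngII against saline ran from -0.03 (without AngII 1) to 0.51, and for AngII_FI against AngII that of Mrps18c from -0.20 to 0.02, Mrpl41 from -0.16 to 0.02 and Mrps22 from -0.18 to 0.03. Without both AngII_FI 3 and AngII 3, Mrpl41, Mrps22 and Mrps11 stood at 0.11, 0.07 and 0.02; without AngII_FI 3, removal of mitochondrially encoded genes and DESeq2 both gave 0.02 for Mrpl41 and 0.03 for Mrps22. The cause was not tested. With a replicate block, 0 genes of the family were called and 124, 0 and 61 of all genes, against 388, 0 and 170 without it and 1075, 45 and 828 by DESeq2, in the order AngII against saline, AngII_FI against AngII, AngII_FI against saline. Whether equal numbers pair the libraries was not settled. Deviations correlated at -0.0663 to 0.111 over 12 same-numbered pairs, and 10 of 24 best matches had the same number. With 4 numbers per group, some such matches arise by chance. Leaving out AngII_FI 3 brought edgeR's common coefficient of variation from 0.343 to 0.269. The lowest count of any of these genes was 710.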
